A study of Mus musculus with 4 samples.

Results

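The genes described here are 37 genes of blood vessels and their growth factors, measured in RNA of mouse pancreatic islets, which hold the endocrine cells of the pancreas. They were chosen by symbol from the 55536 genes of the count table. No rule on their measured values was used, but earlier results of these data were known. Of the 37, 31 are receptors, surface proteins, enzymes and transcription factors that mark endothelial cells, the lining cells of vessels. The other 6 are secreted ligands that act on them. All 37 were found, all had counts in each of the 4 libraries, and all passed the filter on low counts. The libraries came from islets of male C57BL/6 mice aged 8 weeks, isolated by collagenase digestion. In the insulin-depleted group (2 libraries) sequences of insulin were removed with a DepleteX panel during library preparation, and in the non-depleted group (2 libraries) they were not. No transgene or drug treatment is named for either group. The labels call the libraries of a group biological replicates, but do not say which animals or how many each holds, and every column name carries the same pair of codes, so p-values cover only how these 4 libraries vary, which may be technical. Non-depleted column names also bear letters that may stand for size selection, and any such step cannot be told apart from the lack of depletion.

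Islets are supplied by a dense net of capillaries whose walls have fenestrae, small pores closed by a diaphragm, through which hormones enter the blood. Vascular endothelial growth factor A, the product of Vegfa, is made by endocrine cells and acts on endothelial receptors that include those encoded by Kdr and Flt1. Angiopoietins act on the Tie2 receptor, the product of Tek, and the balance of angiopoietin 1 and 2 is known to bear on whether vessels are quiescent or remodel. In whole islets, fewer cells of a type and less RNA per cell cannot be told apart.

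Promoter sequence is shown for the most abundant VEGF receptor genes, for the co-receptor gene Eng and for the most abundant ligand, because the account below starts from them. RefSeq starts of build GRCm38.p6 were at hand for 20 of the 37 genes, in 26 windows, of which only the 250 bases before the start were searched. Capitals mark AGGAAG or its reverse complement CTTCCT, a sequence found in sites of ETS factors such as Erg, and GGGCGG or its reverse complement CCGCCC, the GC box, and no marked match overlaps another in these runs. Each run is given 5′ to 3′ on the strand of its gene, and lies at chr5:75978459-75978705 for Kdr (minus strand), chr5:147726012-147726261 for Flt1 (minus strand), chr2:32646345-32646594 for Eng (plus strand) and chr17:46032378-46032627 for Vegfa (minus strand, the window at its 5′ end, of 2 in all). Bases inside an annotated transcript were left off.
Kdr: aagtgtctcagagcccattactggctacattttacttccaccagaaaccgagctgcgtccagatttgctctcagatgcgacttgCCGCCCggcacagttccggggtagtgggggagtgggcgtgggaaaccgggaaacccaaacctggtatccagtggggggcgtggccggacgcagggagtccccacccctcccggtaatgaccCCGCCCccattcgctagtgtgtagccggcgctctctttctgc
Flt1: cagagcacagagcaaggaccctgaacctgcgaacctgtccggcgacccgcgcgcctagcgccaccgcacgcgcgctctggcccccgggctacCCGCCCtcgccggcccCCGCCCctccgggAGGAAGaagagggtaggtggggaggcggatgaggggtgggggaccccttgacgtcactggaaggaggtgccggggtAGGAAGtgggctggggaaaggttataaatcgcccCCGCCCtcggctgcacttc
Eng: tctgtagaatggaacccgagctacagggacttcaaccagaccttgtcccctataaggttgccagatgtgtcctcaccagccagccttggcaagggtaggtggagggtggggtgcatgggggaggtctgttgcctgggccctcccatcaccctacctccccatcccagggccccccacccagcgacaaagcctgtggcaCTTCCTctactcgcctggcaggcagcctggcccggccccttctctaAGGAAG
Vegfa: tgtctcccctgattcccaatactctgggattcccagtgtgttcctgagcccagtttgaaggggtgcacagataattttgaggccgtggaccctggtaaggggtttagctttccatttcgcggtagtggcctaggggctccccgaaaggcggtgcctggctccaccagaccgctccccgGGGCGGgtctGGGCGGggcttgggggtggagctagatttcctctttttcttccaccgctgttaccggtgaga
The ETS letters occurred in 2 places each before Flt1 and Eng and in 0 before Kdr and Vegfa. GC box letters occurred in 3 places before Flt1, in 2 each before Kdr and Vegfa and in 0 before Eng. Over all member windows, 10 of 26 (38.5%) held the ETS letters and 14 of 26 (53.8%) the GC box, on either strand. In all 32851 windows of that length the shares were 29.5% and 32.7%. A match describes letters in a window and shows no binding. Other spellings of ETS sites were not searched, so a count of 0 covers these letters alone.

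Library totals ranged from 19316173 counts (insulin-depleted replicate 1) to 65030111. Ins1 and Ins2 together took 3.97 to 4.14% of counts without depletion and 0.195 to 0.264% with it, so levels are given as CPM, with Ins1 and Ins2 left out of the library total. Among genes with 2 to 9 counts, 80.01 to 84.01% had an even count in each library, so that counting intervals are too narrow if fragments added 2 counts each. Acinar markers, genes of the digestive tissue around islets, differed most between replicates. Over 10 genes they summed to 12931 and 12912 CPM in replicate 1 without and with depletion, and to 5351 and 5374 CPM in replicate 2. The lists used for this check held beta-cell markers at 18527 to 19812 CPM in sum and alpha-cell markers at 11480 to 13219 CPM, led by Iapp and Gcg.

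The 31 receptors and markers all had counts in each library, which is no test of the endothelial label, since they were chosen to carry it. Their sum was 1899 and 1895 CPM in replicate 1 without and with depletion, and 2075 and 2062 CPM in replicate 2. Of these, 27 had a mean of at least 10 CPM, and 4 genes, Cldn5, Icam2, Clec14a and Sox17, lay between 1 and 10 CPM. Below, a row of 4 values gives first the pair of non-depleted libraries and then the insulin-depleted pair, each with replicate 1 before replicate 2.

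**Figure D1:**
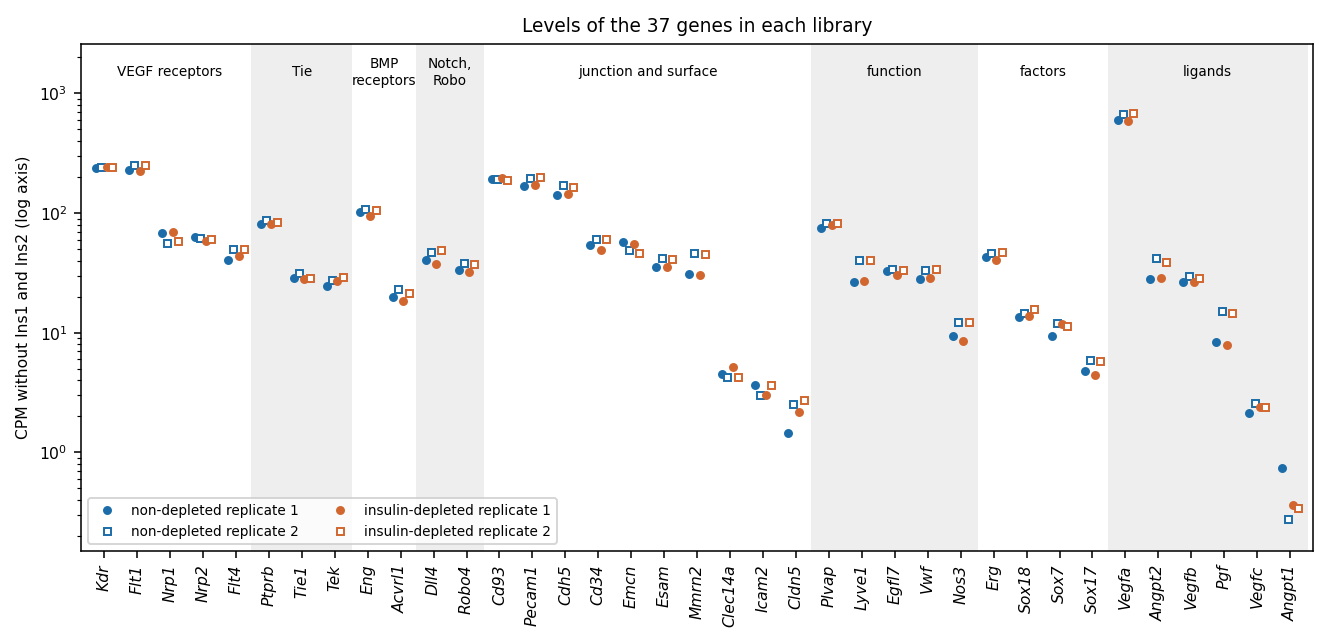
Level of each of the 37 genes as CPM without Ins1 and Ins2 on a log axis, grouped by role, with 1 point per library (blue, non-depleted; orange, insulin-depleted; filled circle, replicate 1; open square, replicate 2). Vegfa lies between 590 and 688 CPM, above the CPM of every other gene with no correction for length, and Angpt1 lies under 1 CPM in all 4 libraries.

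The receptors and co-receptors of VEGF are given first. Kdr (ENSMUSG00000062960, chromosome 5, 75932827 to 75978458, minus strand, GRCm38), the main signalling receptor for VEGF-A, had 236, 241, 242 and 243 CPM. Flt1 (chromosome 5, 147561604 to 147726011, minus strand), a VEGF receptor that binds VEGF-A, VEGF-B and placental growth factor and also has a soluble form, had 231, 251, 226 and 252 CPM. Kdr thus varied little over the 4 libraries, and Flt1 was higher in both libraries numbered 2. Gene counts do not separate the soluble from the membrane form of Flt1. Flt4, the receptor of VEGF-C and a gene of lymphatic vessels and of fenestrated capillaries, had 40.3, 49.7, 43.9 and 49.8 CPM. The co-receptor genes Nrp1 and Nrp2 are also expressed by cells other than endothelium. Nrp1 had 68.0, 56.6, 68.9 and 58.1 CPM and was lower in both libraries numbered 2. For Nrp2 the values were 62.7, 61.8, 57.9 and 61.0 CPM, with both insulin-depleted libraries under both non-depleted ones.

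The angiopoietin receptor system and other receptors follow. Tek, the angiopoietin receptor, had 24.3, 27.4, 26.9 and 29.2 CPM, and its relative Tie1 had 28.8, 31.5, 28.0 and 28.5 CPM. Ptprb, the phosphatase VE-PTP that restrains Tek, had 81.5, 88.3, 80.8 and 84.7 CPM. Groups overlapped for Tek and Ptprb, while both insulin-depleted values of Tie1 lay below both non-depleted ones. Eng and Acvrl1 encode the co-receptor endoglin and the receptor ALK1, which bind BMP9 and BMP10. Eng was at 102, 108, 95.4 and 106 CPM, and Acvrl1 at 20.0, 23.0, 18.4 and 21.6 CPM. Dll4, the Notch ligand of sprouting tip cells and arteries, had 40.2, 47.5, 37.9 and 49.6 CPM. Robo4, a guidance receptor that stabilises vessels, had 33.3, 38.3, 31.8 and 37.8 CPM. The values of these 4 genes were higher in replicate 2 than in replicate 1 of either group, and the groups overlapped.

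Surface and junction proteins held the best-known endothelial markers. Cd93, a lectin-like receptor of endothelium, had 193, 192, 197 and 188 CPM. Pecam1, the adhesion molecule CD31, had 170, 198, 171 and 199 CPM. Cdh5 (chromosome 8, 104101625 to 104144511, plus strand), which encodes VE-cadherin of endothelial junctions, had 140, 171, 144 and 165 CPM. Pecam1 and Cdh5 split by replicate number and not by group. Cd34, a sialomucin, had 54.6, 60.7, 48.9 and 60.1 CPM, and the sialomucin gene Emcn had 56.9, 49.3, 55.2 and 46.2 CPM. Esam, an adhesion molecule of tight junctions, had 35.1, 42.1, 35.2 and 41.5 CPM. The matrix protein gene Mmrn2, whose product binds CD93 and CLEC14A, had 31, 45.9, 30.1 and 45.8 CPM. Emcn was lower in both libraries numbered 2, and Esam and Mmrn2 were higher. Cldn5, the claudin of tight endothelial barriers, had only 1.44 to 2.71 CPM over the 4 libraries, and the adhesion gene Icam2 had 3.01 to 3.65 CPM. Clec14a lay at 4.24 to 5.19 CPM.

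Genes of vessel function include the marker of fenestrated capillaries. Plvap (ENSMUSG00000034845, chromosome 8, 71497765 to 71511752, minus strand), which forms the diaphragms of fenestrae, had 75.2, 83.4, 79.1 and 82.7 CPM. Vwf, the clotting factor stored in endothelial granules, had 27.9, 33.1, 28.7 and 33.8 CPM. Egfl7, a secreted vessel factor, had 32.8, 34.3, 30.4 and 33.5 CPM. These 3 genes overlapped between groups. Lyve1, a hyaluronan receptor of lymphatic vessels, some other endothelia and some macrophages, had 26.6, 40.8, 26.9 and 40.7 CPM. Nos3, the endothelial nitric oxide synthase, had 9.32, 12.3, 8.51 and 12.2 CPM. Both were higher in each library numbered 2. Reads of Nos3 and Egfl7 are uncertain, because 32.3% and 11.2% of their exon bases lie in other annotated genes, among them Atg9b and Agpat2 on the opposite strand, and the use of strand in counting is not given in the sources used here. The same holds for Sox17 (16.8%), Angpt1 (14.2%) and Dll4 (5.56%). Of the 31-base stretches of Egfl7 transcripts, 6.62% also occur in transcripts of other genes.

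4 of the genes encode transcription factors. Erg, an ETS factor that maintains endothelial identity, had 42.8, 46.4, 40.9 and 47.6 CPM. The SoxF genes act in arterial and lymphatic specification. Sox18 had 13.4, 14.6, 13.7 and 15.9 CPM, Sox7 had 9.36, 12.1, 11.8 and 11.4 CPM, and Sox17 ranged from 4.46 to 5.95 CPM. No gene of this set separated the groups.

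The 6 ligands include the main growth factor of islet capillaries. Vegfa (ENSMUSG00000023951, chromosome 17, 46016993 to 46032369, minus strand, GRCm38) had 599, 680, 590 and 688 CPM, which was 88.3 to 90.1% of the summed CPM of the 6 ligands, not corrected for length. Angpt2, which is made by endothelium and can oppose angiopoietin 1, had 28.0, 41.9, 28.5 and 39.0 CPM. Vegfb, a ligand of Flt1, had 26.6, 29.6, 26.3 and 28.7 CPM. All 3 genes were higher in the libraries numbered 2, and the groups overlapped. Pgf (chromosome 12, 85166635 to 85177790, minus strand), placental growth factor, had 8.37, 15.3, 7.88 and 14.5 CPM. Vegfc, the ligand of Flt4, had 2.12, 2.60, 2.39 and 2.39 CPM. Angpt1, the activating ligand of Tek and a product of mural and mesenchymal cells, had 0.742, 0.275, 0.363 and 0.339 CPM, from 36, 16, 7 and 22 counts. It was the only one of the 37 genes with a mean under 1 CPM. A limit of 3 counts corresponds to 0.0463 to 0.156 CPM in the 4 libraries.

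Levels of different genes were ordered after division by the length of their merged exons in kilobases. Vegfa came first with a mean of 149 CPM per kb (138 to 161 over the 4 libraries), and ranked 196 among the 19723 genes tested. Plvap followed with 40.3 CPM per kb (37.9 to 42.0), then Cdh5 with 36.9 (33.4 to 40.6), Pecam1 with 29.6, Cd93 with 28.8, Kdr with 26.6, Eng with 25.4, Flt1 with 17.7, Vegfb with 17.3 and Esam with 13.4 CPM per kb. Plvap thus stood well above its place by CPM alone, since its merged exons span 1987 bases against 9030 for Kdr and 13504 for Flt1. Of 36 pairs of neighbours in this order, 30 had overlapping ranges over the libraries. Within each library, 17 of the 36 pairs kept their order in all 4 libraries, among them Plvap over Cdh5, Kdr over Eng and Flt1 over Vegfb, whose ranges overlap. The 6 pairs whose ranges did not overlap were Vegfa over Plvap, Cdh5 over Pecam1, Cd93 over Kdr, Eng over Flt1, Vegfb over Esam and Vegfc over Angpt1. At the low end stood Sox17 with 1.10, Clec14a with 0.996, Vegfc with 0.969 and Angpt1 with 0.0826 CPM per kb. Of the 37 genes, 7 were in the top 10% of tested genes by this measure. With the mean length of annotated transcripts in place of merged exons, Flt1 moved to rank 2 and Plvap to rank 9, while Vegfa stayed at rank 1. By that length Pecam1 stood above Cdh5 (ranks 3 and 4) and Kdr above Cd93 (5 and 10). Flt1 stood above Eng (2 and 6) and Esam above Vegfb (7 and 11). With the longest transcript, Pecam1 and Kdr held ranks 2 and 3, above Plvap (4), Cdh5 (5) and Cd93 (8). Of the 6 pairs above, only Vegfa over Plvap and Vegfc over Angpt1 kept their order with all these lengths.

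**Figure D2:**
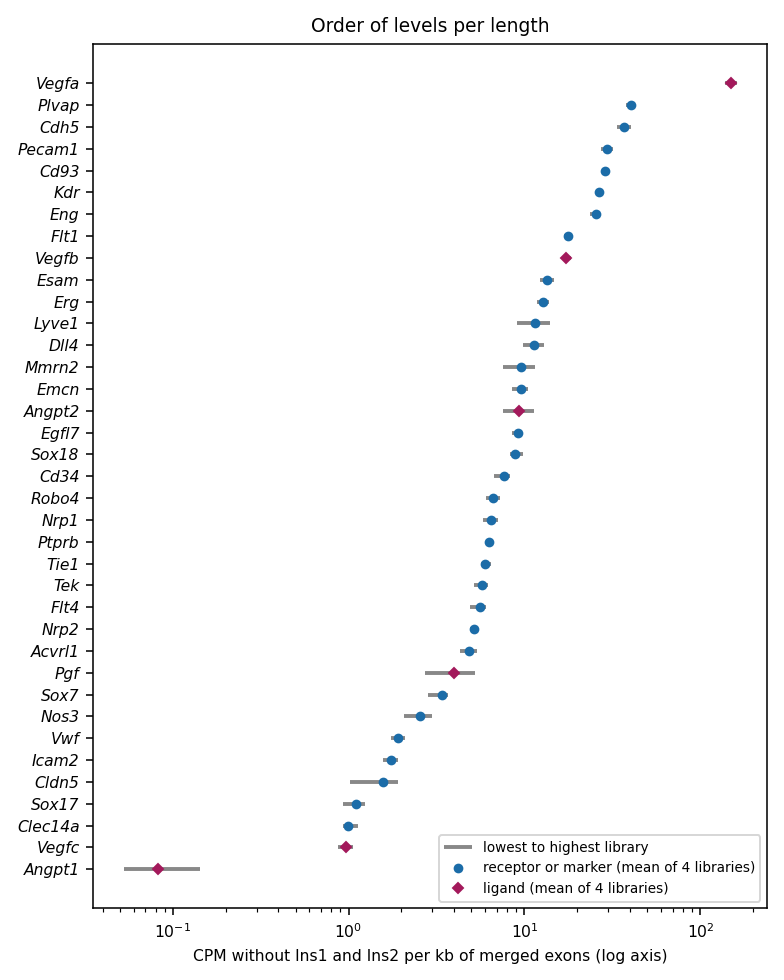
The 37 genes ordered by mean CPM without Ins1 and Ins2 per kb of merged exons on a log axis, with a line from the lowest to the highest library. Vegfa stands at 149 CPM per kb and Plvap, next, at 40.3, and most neighbouring lines overlap.

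Insulin depletion was then compared with no depletion, to ask whether vessel genes were measured at the same level once insulin reads were removed. No member passed the test (edgeR quasi-likelihood test, Benjamini-Hochberg adjustment over all 19723 genes tested, 0 of 37 members called, smallest unadjusted p 0.341). DESeq2 and limma-voom also called 0 members, and 0 members had an unadjusted edgeR p under 0.05. Among all genes tested 0.0101% were called, which were Ins1 and Ins2 alone. The median log2 fold change of the 37 genes was -0.01, beside -0.0025 for all genes tested, with 15 above and 22 below 0. Among the 31 members with a mean of at least 10 CPM, 28 (90.3%) lay within 0.1 of 0 on the log2 scale, beside 87.6% of all genes tested at that level, Ins1 and Ins2 left out.

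The intervals of the model on group alone have a spread that includes the difference between replicate numbers, which both groups share. For the 31 members of at least 10 CPM, the 95% interval of the log2 fold change reached a median of 0.30 to either side, a 1.23-fold difference, and at most 0.93, for Pgf. Vegfa averaged 639 ± 56.9 CPM in non-depleted and 639 ± 68.9 CPM in depleted libraries (SD, n = 2 each), and its log2 fold change had an interval of -0.27 to 0.26. For Kdr the means were 238 ± 3.20 and 243 ± 0.832 CPM (SD, n = 2 each), with an interval of -0.15 to 0.20. Plvap had 79.3 ± 5.75 and 80.9 ± 2.55 CPM (SD, n = 2 each), with an interval of -0.18 to 0.23. Cldn5 and Angpt1 had the log2 fold changes farthest from 0, at 0.31 (SE 0.34) and -0.54 (SE 0.65), and both are low-count genes. Angpt1 averaged 0.509 ± 0.330 CPM in non-depleted and 0.351 ± 0.0169 CPM in depleted libraries (SD, n = 2 each), and its interval ran from -2.16 to 1.08. Tek (0.11, SE 0.11), Sox7 (0.11, SE 0.17) and Acvrl1 (-0.10, SE 0.13) were the only members of at least 10 CPM outside 0.1 of 0, and none of them passed the test.

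**Figure D3:**
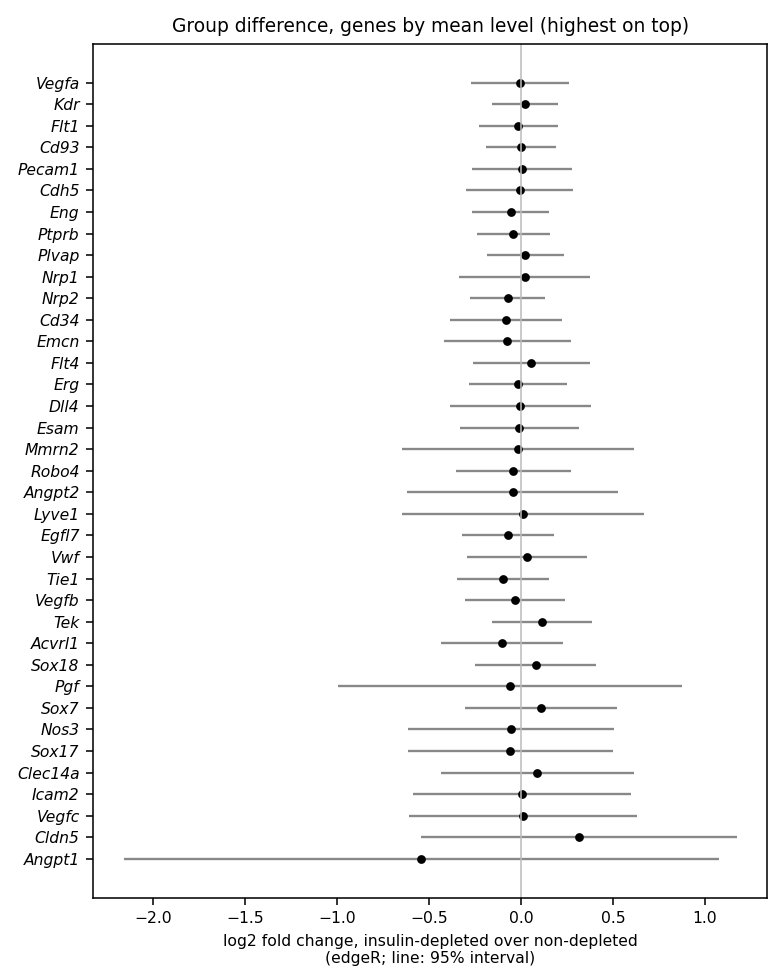
Log2 fold change of insulin-depleted over non-depleted libraries (edgeR, 2 against 2) for the 37 genes in order of mean CPM, with 95% intervals as lines. Every interval includes 0, and the widest belongs to Angpt1 (-2.16 to 1.08), while that of Vegfa runs from -0.27 to 0.26.

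Groups did not overlap for 3 of 37 members. Depleted values of Kdr were the higher pair, where 10.2% of the 19721 tested genes other than Ins1 and Ins2 had that order, and depleted values of Nrp2 and Tie1 (5.41% of the members) were the lower pair, where 9.33% of those genes did. The gap for Kdr was 241 against 242 CPM. Summed over the 31 receptors and markers, the level was 1987 ± 124 CPM in non-depleted and 1979 ± 118 CPM in depleted libraries (SD, n = 2 each), a ratio of 0.996 (exact two-sided permutation p = 0.667). The 6 ligands summed to 717 ± 73.8 and 714 ± 82.7 CPM (SD, n = 2 each), also a ratio of 0.996 (exact two-sided permutation p = 1.00). With 2 against 2 libraries this test cannot give a p below 0.333. As CPM of all counts, insulin included, both ratios were 1.04.

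The members were then compared between replicates of each group. Of the 31 members with a mean of at least 10 CPM, 26 (83.9%) were higher in replicate 2 than in replicate 1 in both groups, beside 45.3% of all 10008 genes of that level. In 3 of them, Nrp1, Emcn and Cd93, replicate 2 was lower in both groups (9.68%, beside 35.6% of all such genes), and for Nrp2 and Sox7 the sign differed between groups. The median log2 ratio of replicate 2 to replicate 1 over the 31 members was 0.17 without and 0.20 with depletion, and 0.03 and 0.02 over all such genes. With TMM scaling 25 members were higher and 4 lower in both groups, Kdr now among the lower ones, and the members' medians were 0.14 and 0.17. Unscaled, both counting intervals of Kdr included 0, so the counts of members include some with next to no difference. Labels call the replicates biological and name no other difference between them, and the replicate difference was not tested. Genes of 1 cell type are not independent of each other, so the counts of members describe these libraries alone. Over 11595 genes whose mean reached 5 CPM, replicate differences in the 2 groups had a Pearson correlation of 0.844. The same sign in both groups is therefore not a finding made in 2 separate comparisons.

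Pgf, Lyve1 and Mmrn2 were the 3 members (9.68%) that were at least 1.4-fold higher in replicate 2 in both groups. That limit was chosen after the values were seen and met by 2.00% of all such genes. None of the 31 was that much lower in both groups, as 1.54% of such genes were. For Pgf the log2 ratio was 0.87 in non-depleted libraries (95% counting interval 0.70 to 1.04) and 0.88 in insulin-depleted ones (0.63 to 1.14). For Lyve1 it was 0.62 (0.52 to 0.72) and 0.60 (0.46 to 0.74), and for Mmrn2 0.56 (0.47 to 0.66) and 0.61 (0.48 to 0.74). Angpt2 had 0.58 (0.49 to 0.68) and 0.45 (0.32 to 0.59), and Nos3 had 0.40 (0.23 to 0.57) and 0.52 (0.27 to 0.77). All of these intervals lie above 0, but they hold counting error alone and are too narrow even for that if fragments added 2 counts each. Other members of at least 10 CPM had smaller ratios, with 0.22 in both groups for Pecam1, 0.28 and 0.20 for Cdh5, 0.15 and 0.06 for Plvap, and 0.03 and 0.01 for Kdr. Nrp1 (-0.27 and -0.25) and Emcn (-0.21 and -0.26) went the other way. Angpt1 had ratios of -1.43 and -0.10 at 7 to 36 counts per library, with a counting interval in the insulin-depleted pair of -1.38 to 1.37.

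**Figure D4:**
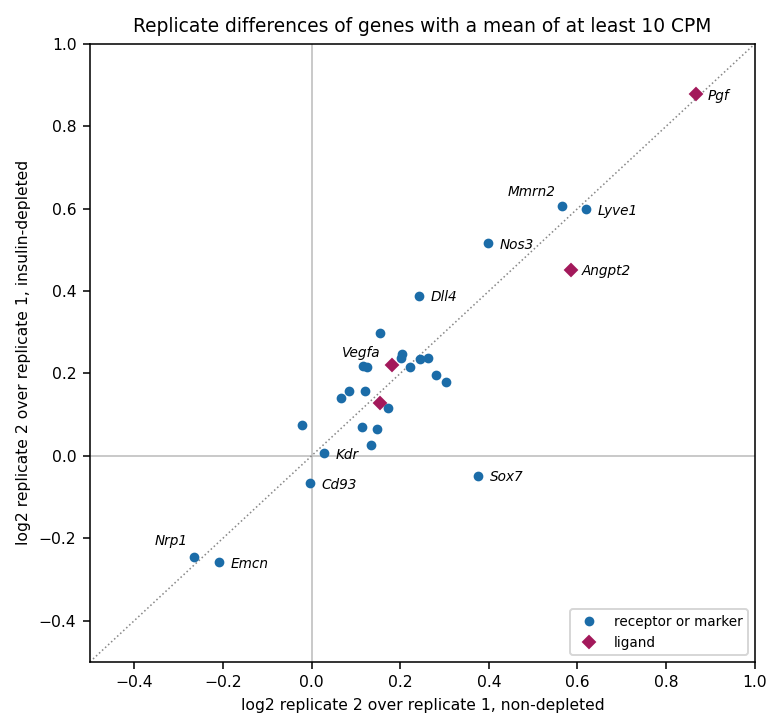
Log2 ratio of replicate 2 to replicate 1 in non-depleted libraries (horizontal axis) and in insulin-depleted libraries (vertical axis) for the 31 genes whose mean reaches 10 CPM, with the line of equal values drawn. Pgf stands at 0.87 and 0.88 at the upper right, Nrp1 and Emcn lie below 0 on both axes, and 26 points lie above 0 on both.

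Markers of other cell types are given by replicate number too. The acinar sum had a log2 ratio of replicate 2 to replicate 1 of -1.27 without and -1.26 with depletion, with all 10 markers lower in replicate 2 of both groups. With acinar markers also left out of the totals, 25 of the 31 vessel genes were higher in replicate 2 of both groups, and the same 3 genes passed 1.4-fold. The median log2 ratios of the 31 were then 0.16 and 0.18, against 0.17 and 0.20. This step rescales all genes of a library alike and by little, so it cannot address the part of acinar tissue. The 6 stellate and fibroblast markers, led by Dcn and Col3a1, were all lower in replicate 2 of both groups, with log2 ratios of their sum of -0.23 and -0.29. Of 8 beta-cell markers other than insulin, 6 were higher in replicate 2 of both groups, and 2, G6pc2 and Iapp, were lower. Named after their values were seen, Nkx6-1 (log2 ratios 0.41 and 0.40) and Slc2a2 (0.42 and 0.43) had the largest ratios. Slc30a8 (0.04 and 0.03) had the smallest of the 6. The beta-cell sum, which is mostly Iapp, had ratios of -0.10 and -0.06. Sums of alpha-cell markers had -0.18 and -0.19 (1 of 5 higher in both groups, 3 lower). Delta- and gamma-cell markers had -0.34 and -0.32 (1 of 3 higher, 2 lower). Ductal markers had -0.07 and -0.07 (1 of 5 higher, 4 lower), and Schwann-cell markers -0.04 and -0.05 (1 of 6 higher, 3 lower). The 10 immune markers summed to 72.4 to 86.9 CPM, with log2 ratios of 0.20 and 0.26. Of the 8 tested, 3 were higher and 3 lower in replicate 2 of both groups. Their leaders Cd68 and Cd74 had 21.2 to 31 and 18.2 to 27.9 CPM, and Cd3e was at 0 in all libraries. The 5 erythroid markers, genes of red blood cells led by Hbb-bs and Hba-a1, summed to 7.34, 11.5, 8.82 and 10.9 CPM. Hbb-bs alone had 5.15, 8.76, 6.54 and 8.48 CPM. The 11 mural markers summed to 290, 304, 277 and 309 CPM. Both sums were higher in the libraries numbered 2. Of the erythroid markers, however, only 2 were higher in replicate 2 of both groups and 1 was lower. Of the mural markers 6 were higher and 0 lower. The part of any of these cell types in the replicate differences of the vessel genes was not tested.

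Neighbouring vessel cells were measured as well. Of 11 mural-cell markers, 0 were called in either direction, with a median log2 fold change between groups of 0.0046. The pericyte gene Rgs5 had 99.1, 110, 90.8 and 109 CPM, and the adhesion gene Mcam, which endothelium also expresses, had 88.2, 89.0, 81.9 and 91.6 CPM. Of the 5 lymphatic markers, Ccl21a and Mmrn1 were at 0 in all 4 libraries, which allows up to 0.0463 to 0.156 CPM per library. Prox1 (157 to 180 CPM) and Pdpn (47.4 to 53.9 CPM) led that list, and Prox1 is also known from islet endocrine cells. Reln, also in that list, had 2.74 to 4.12 CPM. The symbol Ccl21a stands for 2 gene identifiers, both at 0, and how reads shared between them were counted is not given. The vessel type that gave the Flt4 and Lyve1 reads was not tested. Arterial, venous and capillary markers (14 of 15 symbols in the table) had 0 called genes and a median of -0.03. Of these, 5 were higher and 7 lower in replicate 2 of both groups, with log2 ratios of their sum of -0.09 and -0.12. That sum was 275, 259, 277 and 254 CPM. Icam1 of this list, at 50.5, 26.3, 54.6 and 27.0 CPM, fell by more than the sum did, so its ratios do not describe the list as a whole. The capillary fatty acid carrier gene Fabp4 had 78.9, 82.0, 77.3 and 79.0 CPM, and the guidance receptor gene Unc5b had 43.1, 48.2, 47.8 and 46.9 CPM.

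Other genes of the pathways were read in the same way. Of 71 symbols of further endothelial and angiogenic genes, 70 were in the table and 67 were tested, with 0 called in either direction, 36 above and 31 below 0 and a median of 0.0053. The highest was Ece1, the endothelin-converting enzyme, at 530, 583, 515 and 579 CPM, followed by Thbs1, an inhibitor of angiogenesis, at 395, 444, 402 and 442 CPM. In this list 33 of 67 tested genes were higher in replicate 2 of both groups and 18 were lower, whatever their level, beside 45.3% and 35.6% of all genes of at least 10 CPM. Chosen after their values were seen, the tip-cell genes Esm1 and Apln, whose products are induced by VEGF, had 127, 157, 121 and 164 CPM and 30.7, 47.4, 30.6 and 45.5 CPM. Both were higher in the libraries numbered 2, and a response to VEGF was not tested. Icam1, a leukocyte adhesion gene induced by inflammation and likewise chosen after its values were seen, had the reverse order with 50.5, 26.3, 54.6 and 27.0 CPM. In the same list as Esm1 and Apln, some genes were lower in replicate 2 of both groups by a like amount. Among them were Fgf2 (log2 ratios -0.69 and -0.58), Cxcl12 (-0.57 and -0.43) and Lmo2 (-0.53 and -0.52), also chosen after their values were seen.

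Genes of hypoxia sensing and targets of the hypoxia-inducible factors, of which Vegfa is one, were also read. None of 16 was called (edgeR, 0 in either direction), with a median log2 fold change of -0.01. Hif1a, the oxygen-regulated transcription factor, had 356, 314, 352 and 315 CPM and was lower in the libraries numbered 2, whereas its target Bnip3 had 280, 358, 284 and 369 CPM and was higher there. Of this list, 5 genes were higher and 6 lower in replicate 2 of both groups.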

How the data were processed

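RNA of mouse islets was sequenced in 4 libraries, per the labels. The authors deposited gene counts as whole numbers with no normalization. Deposited values of the non-depleted columns carry the unit expected counts here only because of the word size in their headers. They too are whole numbers and were used as counts. These columns were assigned by the absence of a depletion tag and by their final number. Per the submitters' processing notes, cutadapt 4.8, STAR 2.7.11b, GRCm38 and mm10 were used, with no role stated. How genes were counted, and on which strand, is not given in the sources used here. All 55536 identifiers matched GENCODE M21, which gave positions and exon lengths.

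Levels are CPM of totals without Ins1 and Ins2. Groups were compared with edgeR 4.0.16 (filterByExpr, TMM, glmQLFit robust, glmQLFTest on group alone, Benjamini-Hochberg over 19723 genes, threshold 0.05), tested on simulated data. DESeq2 1.42.0 and limma-voom (limma 3.58.1) were alternatives. The common dispersion was 0.0291. Standard errors and 95% intervals come from the fold change and its test statistic. Sums were compared with exact permutation tests (scipy 1.17.1), and counting intervals of ratios are exact conditional binomial ones. They cover counting error only, since reads carry no molecular identifiers.

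The members, gene lists and tests were chosen with earlier results of these data known. Each library's value was to be given for members with a mean of at least 10 CPM and for the ligands, and of other lists for the 2 most abundant genes. Symbols not in the table were Figf and Ca4. Totals without acinar markers, TMM scaling of replicate ratios, and sums without Vegfa or the neuropilins were added after seeing the data.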

Additional observations from a re-analysis of the deposited data

How the results depend on the processing

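No member was called under any of 11 alternatives in normalization, filter, tool, model, counting unit or library left out. In 4 of these a group had 1 library, whose spread was taken from the other group, so they say nothing of stability. With a replicate block 9 genes of the whole table were called in place of 2, none of them a member, and the median of the members was -0.0116. Its 95% intervals for the 31 members of at least 10 CPM had a median half-width of 0.12 on the log2 scale, against 0.30 on group alone, and all included 0. For Vegfa that interval ran from -0.04 to 0.03. Labels do not state that same-numbered libraries share an animal. Across 11595 genes whose mean reached 5 CPM, replicate differences in the 2 groups had a Pearson correlation of 0.844, a description of these libraries. Leaving out 1 library moved the members' median log2 fold change between -0.0995 and 0.0786, and 7 to 18 of the 37 members changed sign. Without insulin-depleted replicate 2 the median was -0.0995, without non-depleted replicate 1 it was -0.0836, without non-depleted replicate 2 it was 0.0786, and without insulin-depleted replicate 1 it was 0.0754, so the sign between groups follows the replicate numbers left. In limma-voom 11 members changed sign and the median was 0.0081. The ratio of summed endothelial levels ranged from 0.954 to 1.04 and that of ligands from 0.915 to 1.08 over libraries left out, and ligands without Vegfa gave 0.968. Depth limits Angpt1, Cldn5 and Vegfc most, above all in insulin-depleted replicate 1.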
